A study of Mus musculus with 18 samples.

Results

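Mitochondrial ribosomal protein genes were examined on mouse cDNA arrays of undifferentiated ES cells and of embryoid bodies (EBs), the floating aggregates in which ES cells begin to differentiate. A clone was taken when the single gene symbol of its spot began with Mrpl or Mrps followed by a number. This gave 54 clones of 48 genes, out of 9866 clones with 1 symbol (7142 genes) and 15360 clones on the slides. None of the 54 clones lacked a value in any condition. The proteins of 36 genes belong to the large subunit and those of 12 genes carry small subunit names. Mrps18a is counted with the large subunit, where its protein sits.

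The EB conditions were D1-LIF to D4-LIF, grown for 1 to 4 days without leukaemia inhibitory factor (LIF), and D1+LIF to D4+LIF, grown for the same days with it. The EBs started from hanging drops of about 1000 cells. D0 was the undifferentiated culture, kept in LIF on gelatin. All came from IMT11, a single ES cell line of 129 mouse origin, in medium with fetal and newborn bovine serum, and no gene was altered. Each of the 9 conditions had 2 arrays, 1 with the sample in Cy3 and 1 with it in Cy5, against a pooled control made of equal amounts of all the samples. The labels state 2 biological sets but not which array came from which, so dye and set cannot be told apart. In whole EBs, fewer cells of a type and less RNA per cell cannot be told apart either.

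Mitochondria keep their own ribosome, which translates the few messages of mitochondrial DNA, all of them for subunits of the respiratory chain and the ATP synthase. Its ribosomal RNAs are made in the organelle, while every protein of its large (Mrpl) and small (Mrps) subunits is encoded in the nucleus, made in the cytosol and imported. ES cells rely strongly on glycolysis, and their mitochondria are known to mature as they differentiate. LIF acts through STAT3 to maintain self-renewal.

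A value is the log2 of the ratio to the pooled control after each slide of each array was centred on its own median, so that 0 is the median clone and 1 is 2-fold above it. The direction of the deposited ratio is not stated and is not settled by the values. Sample over pool was used, since the labels put the sample in the first channel. Over the 15360 clones, Cy3 arrays against Cy5 arrays had a mean correlation of -0.14, and the 2 arrays of a condition -0.10. Among Cy3 arrays the mean was 0.33, with a lowest value of -0.20 (-0.31 over slide 2 alone), and among Cy5 arrays it was 0.64, which arrays of 1 dye could show under either direction. Comparisons are therefore also given with the Cy3 ratios inverted. A set of clones spans 2 slides per array. The genes had all their clones on slide 1 (27 genes), on slide 2 (19 genes) or on both (2 genes). Slide 1 of 3 arrays stood apart. On the D0 array in Cy3 its deposited median was -2.73 on the log2 scale and its SD was 2.23. On the D2-LIF array in Cy5 the SD was 2.10 and 6565 clones had no value, and on the D1+LIF array in Cy5 the SD was 2.40 and 2855 clones had no value. Values were lacking for 24 of the 48 genes on the first of these Cy5 arrays and for 7 on the second, which left at least 16 arrays for each gene and all 18 for 24 genes. Among the slides numbered 2, that of the D4+LIF array in Cy5 had the highest SD, 1.41, and a deposited median of 1.57.

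On the Cy3 arrays of EBs the 48 genes lay close to the median clone, with medians from -0.09 (D3-LIF) to 0.13 (D2-LIF). On the D0 array in Cy3 their median was 1.16. The 27 genes of slide 1 had a median of 2.71 there, with a range from -1.40 to 3.92, whereas the 19 genes of slide 2 had a median of 0.01, with a range from -0.60 to 1.01. Before centring, the slide 1 genes of this array had a median of 0.00, while the median clone of the slide was at -2.73. On the Cy5 arrays the medians were below 0 throughout, from -0.64 (D4+LIF) to -0.15 (D2-LIF) in EBs and -0.15 at D0. The fitted dye term, Cy5 minus Cy3, was below 0 for 42 of the 48 genes, with a median of -0.63 against -0.10 over all genes. It passed an adjusted p of 0.05 in limma as lower for 22 genes (background 27.5% of all genes) and as higher for 1 (background 8.39%).

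**Figure D1:**
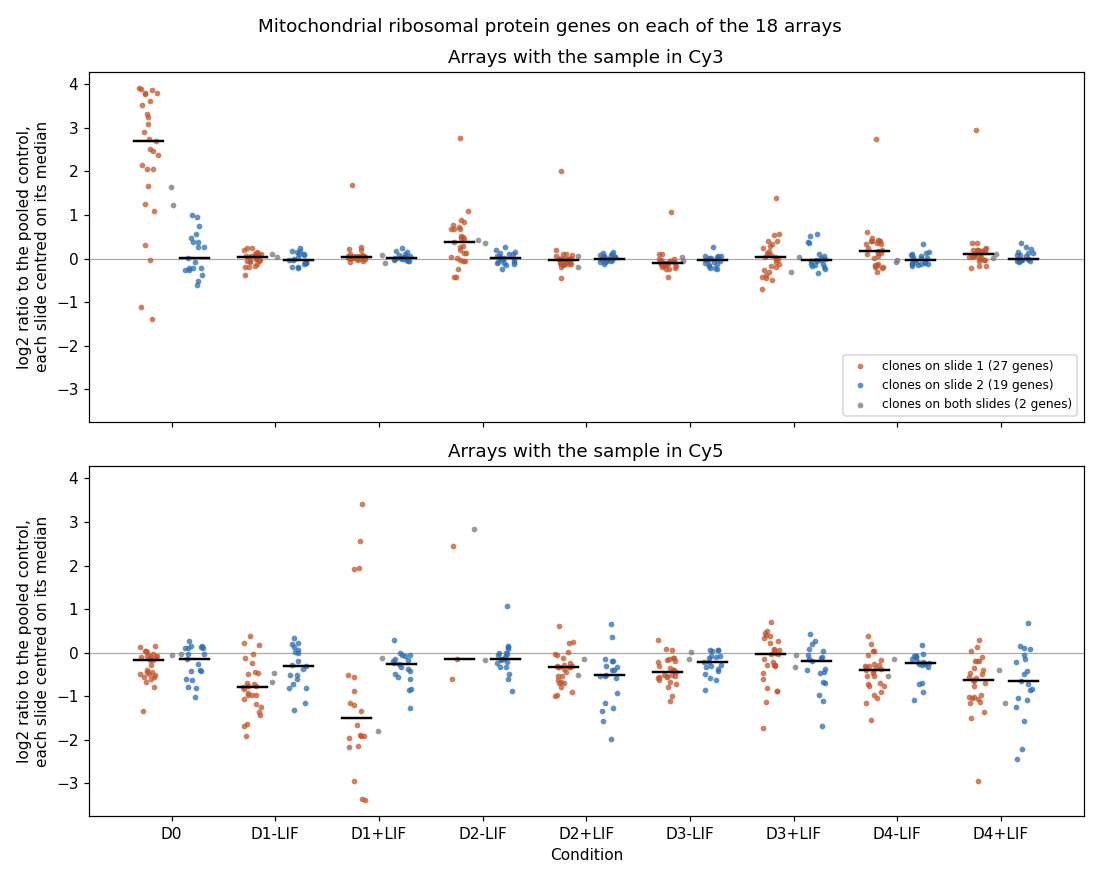
Log2 ratio to the pooled control of each mitochondrial ribosomal protein gene (points) on the 9 arrays with the sample in Cy3 (top) and the 9 in Cy5 (bottom), by slide, with black bars at the medians of the slide 1 and slide 2 genes. Slide 1 genes reach 3.92 on the D0 array in Cy3, while slide 2 genes stay between -0.60 and 1.01 there.

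A gene is called here when its adjusted p is under 0.05. The first question was whether the transcripts of the mitochondrial ribosome changed when ES cells formed EBs. No member passed an adjusted p of 0.05 in limma in any EB condition against D0. The background over the 7142 genes was 0.07% for D1-LIF, 0% for D2-LIF, 0.056% for D3-LIF, 0% for D4-LIF, 0.014% for D1+LIF, 0% for D2+LIF, 0.042% for D3+LIF and 0.056% for D4+LIF, so few genes of any kind were called. At an unadjusted p under 0.05 there were 22, 4, 18 and 14 of 48 genes on Days 1 to 4 without LIF, against a background of 22.7%, 8.01%, 19.2% and 12.7%. With LIF there were 22, 22, 12 and 25 genes, against a background of 22.5%, 19.4%, 20.5% and 28.5%. Most of them were lower in EBs, with 21, 3, 17 and 12 genes without LIF (background 16.5%, 4.17%, 14.3% and 9.48%) and 19, 20, 10 and 23 with LIF (background 14.1%, 14.3%, 12.9% and 19%). The genes at an unadjusted p under 0.05 were 0, 2, 1 and 2 without LIF and 2, 0, 3 and 3 with LIF once the Cy3 ratios were inverted, and 34 to 40 of the 48 genes lay above 0.

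The median change of the 48 genes against D0 was -0.78, -0.34, -0.78 and -0.70 on Days 1 to 4 without LIF and -0.68, -0.77, -0.69 and -0.85 with LIF, while that of all genes lay between -0.13 and -0.04. The change depended on the slide. For the slide 1 genes the medians lay between -1.68 (D1+LIF) and -1.05 (D2-LIF), and for the slide 2 genes between -0.22 (D4+LIF) and 0.01 (D1-LIF). All genes with clones on slide 1 only had medians of -0.42 (D1-LIF) to -0.17 (D1+LIF). Those on slide 2 only had -0.04 (D2+LIF) to 0.02 (D3+LIF). It depended on the dye as well. Within the Cy3 arrays the medians were -1.29 to -0.90, and within the Cy5 arrays -0.45 to 0.08. Without slide 1 of the D0 array in Cy3, a setting chosen after seeing the data, the medians of the 48 genes were -0.28, 0.01, -0.21 and -0.14 without LIF and -0.29, -0.23, -0.09 and -0.32 with LIF. The genes at an unadjusted p under 0.05 were then 3, 2, 4 and 3 without LIF and 6, 4, 6 and 6 with LIF, against 2.60% to 18.5% of all genes, and none was called. With the Cy3 ratios inverted the medians were between 0.32 (D4+LIF) and 0.69 (D3-LIF), and none was called. Without the D0 array in Cy5, so that D0 was the Cy3 array alone, 27, 17, 24 and 23 of the 48 genes were called for D1-LIF to D4-LIF (background 33.1%, 22.6%, 31.2% and 28.1%) and 23, 24, 27 and 26 for D1+LIF to D4+LIF (background 30.2%, 31.2%, 34% and 35.6%). Without the D2-LIF array in Cy3, 1 of 24 genes, Mrpl50 (2.50), was called for D2-LIF (background 3.51%). The part of that slide in the low values of slide 1 genes was not tested beyond these settings.

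**Figure D2:**
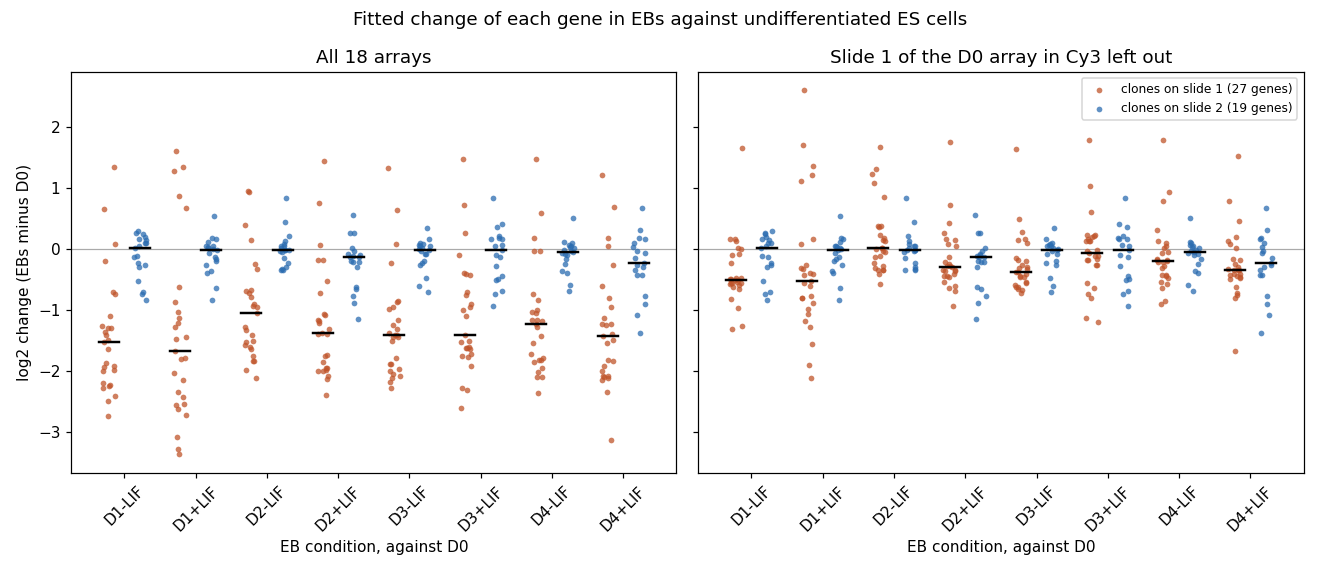
Fitted log2 change of each gene in EBs against D0 (points), for genes of slide 1 and of slide 2, with black bars at their medians, from all 18 arrays (left) and without slide 1 of the D0 array in Cy3 (right). The slide 1 medians of -1.68 to -1.05 on the left lie between -0.52 and 0.02 on the right, while the slide 2 genes are the same measurements in both panels.

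Among genes of slide 2, which do not rest on that slide, Mrpl17 had the lowest change on Day 4 with LIF. Mrpl17 is a large subunit protein of a family shared with bacteria. Its values in EBs were -0.17 to 0.19 in Cy3 and -2.45 to -0.49 in Cy5, against 0.27 in Cy3 and 0.11 in Cy5 at D0. The value of -2.45 was on the D4+LIF array, whose slide 2 had a deposited median of 1.57 and an SD of 1.41. The change on Day 4 was -0.69 ± 0.48 without LIF and -1.37 ± 0.48 with LIF (SE, n = 2 arrays per condition), and the second had an adjusted p of 0.144 in limma. Without the D4+LIF array in Cy3 the second was -2.14 and was called, as were 16.9% of all genes, and with the Cy3 ratios inverted it was -1.19.

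Only 2 members had both D0 arrays below every EB array of the same dye, Mrps9 and Mrpl45, where 5.92% of all genes did so. Neither of them did with the Cy3 ratios inverted, and the count was 1, Mrpl16 (background 1.46%). Mrps9 is a small subunit protein of a family shared with bacteria, and its clone lies on slide 1. In EBs its values in Cy3 were -0.43 at the lowest, -0.07 at the median and 0.12 at the highest, and in Cy5 they were 0.14, 0.33 and 0.62 over the 6 arrays with a value. At D0 it had -1.12 in Cy3 and -1.34 in Cy5. That D0 was the low point in both dyes is how the gene was picked here, and is no separate result. In each dye the gap from D0 to the nearest EB array was wider than the range of the EB arrays. The change against D0 ran from 0.95 (D2-LIF) to 1.48 ± 0.23 (D4-LIF, SE, n = 2 arrays in D4-LIF and in D0). For D2-LIF and D1+LIF it had a value on the Cy3 array only, so their changes rest on that array and the dye term. For D4-LIF that is 2.78-fold, with an adjusted p of 0.375 in limma, and the smallest adjusted p over the EB conditions was 0.109 (D1-LIF). Centring each array over both slides gave 2.52 ± 0.38 for D1-LIF (adjusted p 0.0349) and 2.46 ± 0.38 for D3-LIF (adjusted p 0.0494) in limma. That setting keeps the offset between the slides of the D0 array in Cy3, whose deposited medians were -2.73 (slide 1) and -0.31 (slide 2). The share of all genes called under it is not given, so these calls are not shown to be particular to Mrps9. Without slide 1 of the D0 array in Cy3 the changes were 1.31 to 1.79 and none was called. Without the D4+LIF array in Cy3 the D4+LIF change, 1.21, was called with the same 16.9% of all genes. With the Cy3 ratios inverted the changes were 0.11 to 0.52, with adjusted p of at least 0.749 in limma.

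Mrpl45, a large subunit protein that in mammals anchors the ribosome near the inner membrane at the exit of the peptide tunnel, has its clone on slide 2. Its values in EBs were -0.15, 0.01 and 0.16 in Cy3 (lowest, median and highest) and -0.59, -0.14 and 0.43 in Cy5. At D0 it had -0.52 in Cy3 and -0.62 in Cy5. The lowest Cy5 array of EBs was D1-LIF, close above the D0 array, while the others were clear of it. The change against D0 was 0.26, 0.45, 0.34 and 0.50 on Days 1 to 4 without LIF and 0.54, 0.55, 0.84 and 0.67 with LIF, each with an SE of 0.21. The largest, on Day 3 with LIF, was 1.79-fold with an adjusted p of 0.185 in limma. Over the clones of slide 2 alone, a setting chosen after seeing the data, the change of 0.67 for D4+LIF had an adjusted p of 0.0466 in limma. With the Cy3 ratios inverted the changes were -0.24 to 0.21.

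The start sites of both genes are shown because, in the direction used, no other member was lowest at D0 in both dyes. The sequences are from RefSeq (GRCm38.p6), 250 bases before the start and 50 after it, on the plus strand of chr1:42850983-42851282 and chr11:97315466-97315765. Capitals mark matches to the NRF-1 palindrome, read on both strands. NRF-1 is a factor known for nuclear genes of mitochondrial proteins.
Mrps9: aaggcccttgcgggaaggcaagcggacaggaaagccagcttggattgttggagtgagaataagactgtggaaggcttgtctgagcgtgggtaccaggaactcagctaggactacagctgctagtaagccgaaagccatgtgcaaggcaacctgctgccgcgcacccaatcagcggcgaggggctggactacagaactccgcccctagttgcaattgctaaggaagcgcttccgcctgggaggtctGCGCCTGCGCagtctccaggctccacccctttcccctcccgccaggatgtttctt
Mrpl45: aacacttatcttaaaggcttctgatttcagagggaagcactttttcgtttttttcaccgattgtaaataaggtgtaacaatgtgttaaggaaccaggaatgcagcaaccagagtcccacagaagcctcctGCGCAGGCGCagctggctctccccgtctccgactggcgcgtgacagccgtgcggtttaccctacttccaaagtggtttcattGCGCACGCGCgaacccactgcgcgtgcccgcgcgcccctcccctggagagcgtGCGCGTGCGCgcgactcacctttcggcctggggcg
Mrps9 has 1 match, which begins 5 bases upstream of the start. Mrpl45 has 3 matches, which begin 120 and 38 bases upstream and 15 bases downstream. Such matches are a description of the letters and were in 11.5% of the 5781 genes tested here with a window, and in 4.6% of the 32851 promoter windows of the RefSeq table.

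Both D0 arrays lay above every EB array of the same dye for 7 members, Mrpl2, Mrpl15, Mrpl17, Mrpl38, Mrpl49, Mrps10 and Mrps27, where 7.15% of all genes did so. None of the 7 did with the Cy3 ratios inverted, and the count was 2, Mrpl1 and Mrpl52 (background 2.35%). Apart from Mrpl17 all have their clones on slide 1. Mrps27, a small subunit protein of the pentatricopeptide repeat family, had -0.02 to 0.55 in Cy3 and -0.57 to -0.19 in Cy5 in EBs, against 1.09 in Cy3 and 0.04 in Cy5 at D0. Its change was between -0.86 (D1+LIF and D3-LIF) and -0.43 (D3+LIF), and the adjusted p for D3-LIF was 0.223 in limma. In D1+LIF and D2-LIF it had a value on the Cy3 array only. Mrpl2 is the counterpart of a bacterial protein next to the catalytic centre. It had -0.30 to 0.46 in Cy3 and -0.98 to -0.19 in Cy5 in EBs, against 1.66 in Cy3 and -0.02 in Cy5 at D0. The Mrpl2 change for D3+LIF was -1.40 ± 0.38 (adjusted p 0.20 in limma), and -0.80 ± 0.32 without slide 1 of the D0 array in Cy3. In Cy5 the nearest EB array was D3-LIF, at -0.19.

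Mrps18b, Mrpl49 and Mrpl51 had the most negative changes of the 48 genes, and each had its own lowest for D1+LIF. Mrpl49 and Mrpl51 are found in mitochondrial but not in bacterial ribosomes, and Mrps18b is of the family of a bacterial small subunit protein. Mrpl49 had -0.07 in Cy3 and -3.38 in Cy5 at D1+LIF, against 3.25 in Cy3 and -0.17 in Cy5 at D0, a change of -3.27 ± 0.75. Mrps18b had -0.04 and -3.35 at D1+LIF, against 3.89 and -0.56 at D0, a change of -3.36 ± 0.91. Mrpl51 had 0.02 and -2.95 at D1+LIF, against 3.63 and -0.40 at D0, a change of -3.08 ± 0.99. The 3 adjusted p were each 0.15 in limma. Without the D1+LIF array in Cy3 all 3 were called, as were 16.4% of all genes, at -4.37 for Mrpl49, -4.18 for Mrps18b and -4.02 for Mrpl51. Without the D0 array in Cy3 they were -2.10, -1.90 and -1.55, and none was called. In Cy5 the other EB arrays of Mrpl49 lay between -0.98 and -0.53, so the D1+LIF value stood alone, and both arrays behind these changes had a slide 1 that stood apart. With the Cy3 ratios inverted the 3 changes were 0.057 for Mrpl49, 0.57 for Mrps18b and 0.53 for Mrpl51.

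Mrps25, another small subunit protein, had the highest mean over its 17 arrays, 0.82, and the 2 dyes disagreed on it. Its mean was -1.27, the lowest of the 48, with the Cy3 ratios inverted. In Cy3 it had 0.20 to 2.96 in EBs, against 2.91 at D0, and in Cy5 it had -1.64 to 0.21 in EBs, against -0.51 at D0. In both dyes the lowest array was D1-LIF, at 0.20 and -1.64. The change for D1-LIF was -1.92 ± 0.54, with an adjusted p of 0.164 in limma. Mrpl30, a large subunit protein on slide 2, had the lowest mean, -0.57, and -0.62 with the Cy3 ratios inverted, where 8 genes lay lower. It had -0.25 to 0.15 in Cy3 and -2.22 to -0.28 in Cy5 in EBs, against 0.95 in Cy3 and -1.02 in Cy5 at D0. Mrpl16 and Mrps35 had the largest p of the F test (0.90 each in limma before adjustment), which with 2 arrays per condition does not show that they were stable. Mrpl16 had -0.17 to 0.27 in Cy3 and -0.52 to -0.01 in Cy5 in EBs, against 0.28 and -0.60 at D0, and Mrps35 had -0.24 to 0.02 and -0.50 to 0.16 in EBs, against -0.21 and -0.03 at D0.

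**Figure D3:**
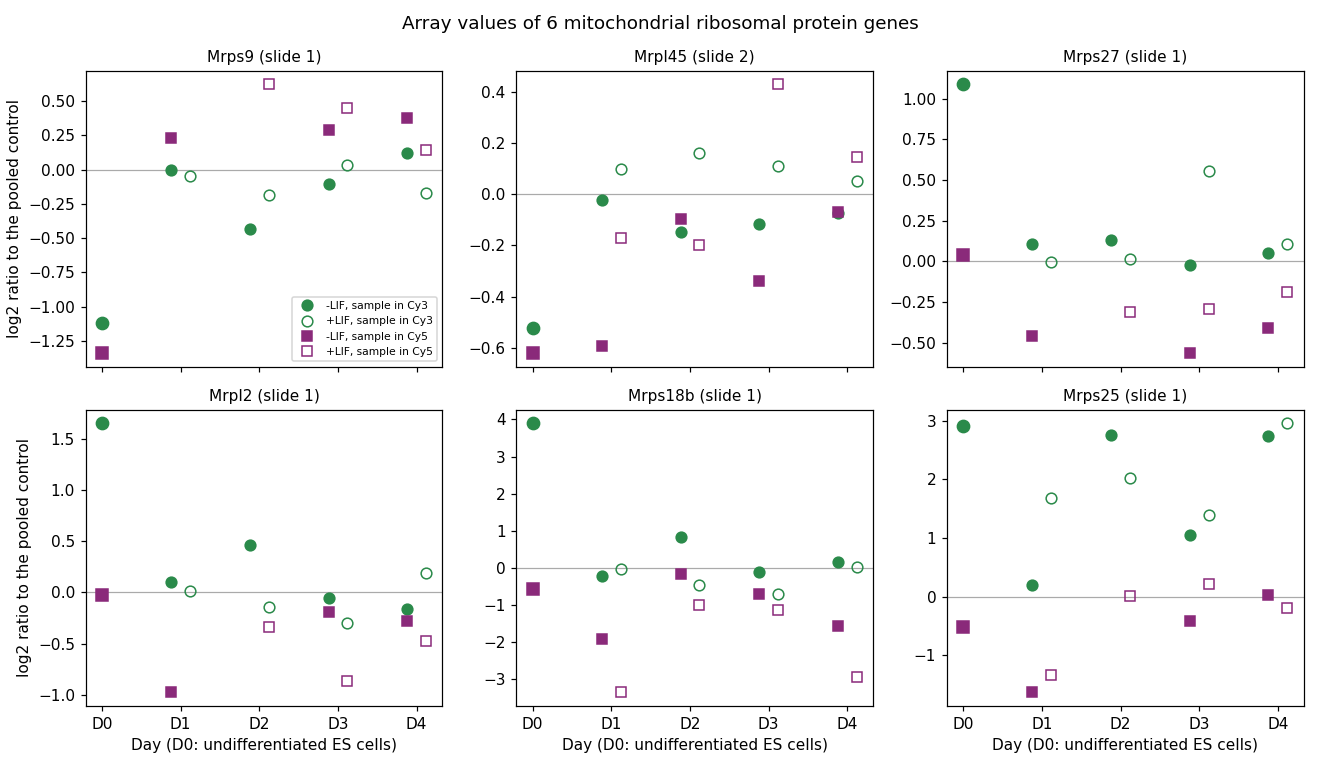
Log2 ratio to the pooled control of 6 genes by day (D0, then D1 to D4), with the sample in Cy3 (green circles) or Cy5 (purple squares), for EBs without LIF (filled) and with LIF (open), 1 point per array. Mrps9 at D0 (-1.12 and -1.34) lies below all its EB arrays in both dyes, and Mrps18b at D0 is 3.89 in Cy3 but -0.56 in Cy5.

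An F test over the 9 conditions called no member (background 0% of all genes), and 2 of the 48, Mrps9 and Mrps25, had an unadjusted p under 0.05 in limma (background 4.06%). The slope per day called no member without LIF (background 0%) or with LIF (background 0.028%). Its unadjusted p was under 0.05 for 5 genes without LIF (background 7.98%) and for 12 with LIF (background 21%). The median slope was -0.12 per day without LIF and -0.15 with LIF, and -0.01 and -0.02 for the genes of slide 2. For 48 and 46 of the genes the 95% interval of the slope lay within 2-fold per day either way (background 98.9% and 98.0%). Without the D0 array in Cy5, 13 members were called by the F test (background 15.1%), 23 by the slope without LIF (background 25.8%) and 26 by the slope with LIF (background 34.8%).

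The next question was whether LIF made a difference among EBs. The D0 arrays entered the estimates of this comparison only through the dye term, for genes that lacked an array. They also entered the spread behind every SE, interval and p given for it. The mean of Days 1 to 4 without LIF minus that with LIF had a median of 0.05 over the 48 genes and of -0.003 over all genes. It was below 0 for 19 of the 48 genes and for 50.7% of all genes. No member was called in limma (background 0%), and 1 gene had an unadjusted p under 0.05 (background 3.11%). Without the D1+LIF array in Cy3, Mrpl42 (-0.76) and Mrpl58 (-0.62) were called, 2 of 41 genes, as were 4.9% of all genes. Both have their clone on slide 1. In that setting D1+LIF rests on its Cy5 array alone, whose slide 1 stood apart and where they had 2.57 and 1.92. Mrpl58 releases peptides from stalled ribosomes. The 95% interval lay within 2-fold for 35 of the 48 genes, as for 83.2% of all genes. For those 35 a mean change of 2-fold or more was outside the interval, while for the other 13 it was not.

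The gene with the small p was Mrpl45. Its EBs without LIF had -0.15 to -0.02 in Cy3 and -0.59 to -0.07 in Cy5, while its EBs with LIF had 0.05 to 0.16 in Cy3 and -0.20 to 0.43 in Cy5. The Cy3 arrays of the 2 media did not overlap and the Cy5 arrays did. The difference was -0.26 ± 0.10, that is 0.835-fold, with an adjusted p of 0.855 in limma, and -0.07 ± 0.17 with the Cy3 ratios inverted. The highest difference was 0.84 ± 0.50 for Mrpl51, whose D2-LIF and D1+LIF arrays in Cy5 (2.44 and -2.95) had a slide 1 that stood apart, and the lowest -0.60 for Mrpl46. Inverting the Cy3 ratios put Mrpl51 at 0.44, Mrpl50 highest at 0.63 and Mrpl46 lowest at -0.60. Day by day no member was called on any of the 4 days (background 0% on each). Without the D1+LIF array in Cy3, Mrpl42, Mrpl46, Mrpl58 and Mrps7 were called on Day 1 (4 of 41 genes, background 12.9%), and without the D2-LIF array in Cy3, Mrpl50 on Day 2 (1 of 24 genes, background 5.02%). Each of these calls left a condition with its Cy5 array alone, whose slide 1 stood apart. In the fit to all arrays there were 1, 3, 1 and 0 genes at an unadjusted p under 0.05 in limma, against 2.86%, 4.56%, 0.602% and 6.16% of all genes. The medians by day were 0.01, 0.17, -0.13 and 0.15, and 0.05, 0.01, -0.04 and 0.15 with the Cy3 ratios inverted. With either D0 array left out in turn, the Day 2 median was 0.27. Days 1 to 4 had 2, 4, 5 and 0 genes at an unadjusted p under 0.05 in limma without slide 1 of the D0 array in Cy3. The background was then 4.86%, 9.16%, 1.79% and 7.78%.

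**Figure D4:**
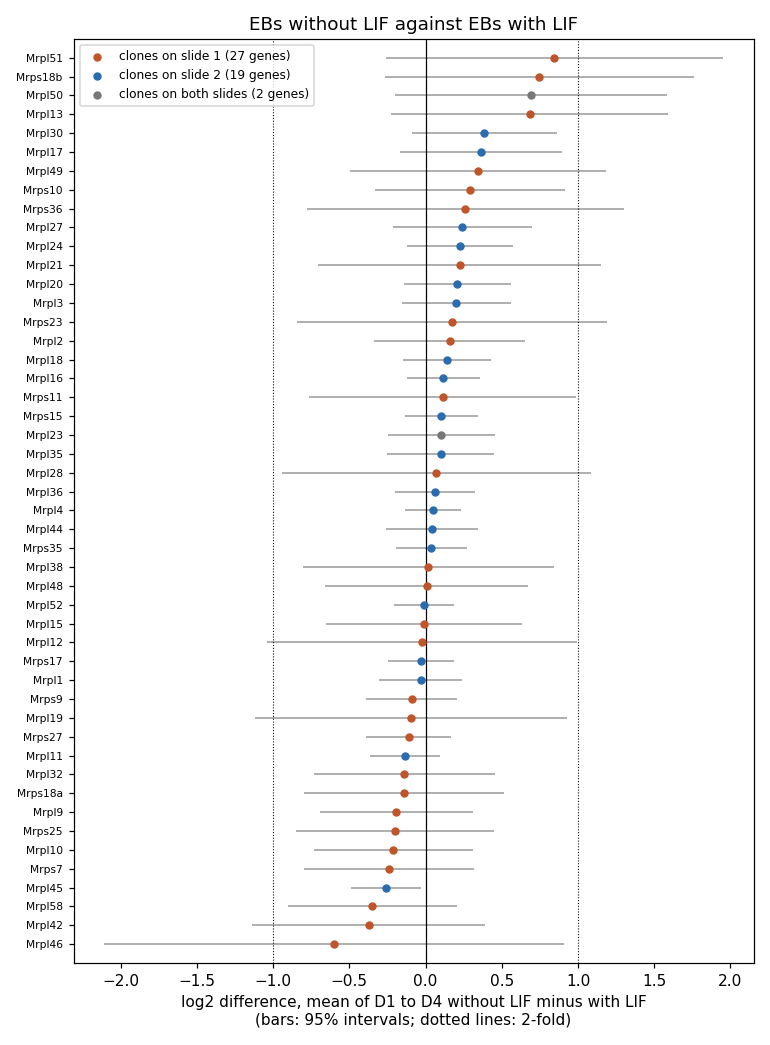
Difference between EBs without LIF and EBs with LIF, averaged over Days 1 to 4, for each of the 48 genes (points, coloured by slide) with its 95% interval from limma (bars). Dotted lines mark 2-fold, and 35 of the intervals lie between them.

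On Day 4 the 2 dyes differed. The Cy5 arrays gave a median of 0.21 without LIF over with LIF, with 9 of 48 genes below 0, and the Cy3 arrays -0.05, with 27 below 0. The medians of all genes differed in the same direction, at 0.08 in Cy5 (41.7% below 0) and -0.02 in Cy3 (54.7% below 0). On Day 2 the Cy5 median was 0.52 over the 24 genes measured, with 6 below 0, and the Cy3 median 0.08, with 14 of 48 below 0. For all genes the Day 2 medians were 0.19 in Cy5 (37.4% below 0) and 0.02 in Cy3 (47.4% below 0). Mrpl50 and Mrpl51 were the members with the highest values on Day 2, at 1.86 ± 0.80 and 2.28 ± 0.99 (adjusted p 0.831 each in limma), and both rest on the D2-LIF array in Cy5, where they had 2.84 and 2.44.

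The subunits were also read apart. The median without LIF over with LIF was 0.05 for the 36 large subunit genes and 0.07 for the 12 small subunit genes. On Day 4 against D0 the medians were -0.70 and -0.49 without LIF and -0.93 and -0.52 with LIF, large subunit first in each pair. Inverted, they were 0.55 and 0.38 without LIF and 0.34 and 0.32 with LIF. The subunits were not spread evenly over the slides, with 18 large and 9 small subunit genes on slide 1 and 16 and 3 on slide 2. The difference between subunits was not tested.

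Clones of 1 gene showed how far the measurements repeat. Duplicate spots of the 54 clones differed by a median of 0.09, and 98.6% of the pairs lay within 1. The 2 clones of a gene differed by more, in 6 genes. For Mrps17, with both clones on slide 2, the median difference was 0.12 and the highest 0.46. For the others the highest difference was on an array whose slide 1 stood apart. The clones of Mrpl15 had 4.25 and -0.13 on the D0 array in Cy3, and those of Mrpl23 had 2.38 (slide 1) and 0.08 (slide 2) on the same array. The clones of Mrpl48 had 0.75 and -3.16, and those of Mrps7 0.04 and 3.87, on the D1+LIF array in Cy5. The clones of Mrpl50 had 5.66 (slide 1) and 0.02 (slide 2) on the D2-LIF array in Cy5. The medians over all shared arrays were 0.40 for Mrpl15, 0.32 for Mrpl23, 0.37 for Mrpl48, 0.24 for Mrps7 and 0.21 for Mrpl50.

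Mrpl46 and Mrps11 are neighbours on chromosome 7, read in opposite directions, with 41 bases between the start of Mrpl46 (78783089, minus strand) and the start of Mrps11 (78783131, plus strand). Both have 1 clone on slide 1. In Cy3 Mrpl46 had -0.25 to 0.60 and Mrps11 -0.11 to 0.30 in EBs, against 3.08 and 3.33 at D0. In Cy5 Mrpl46 had -1.36 to 3.41 and Mrps11 -1.89 to -0.03 in EBs, against -0.79 and -0.07 at D0. They went opposite ways on the D1+LIF array in Cy5, at 3.41 for Mrpl46 and -1.89 for Mrps11, and both were missing on the D2-LIF array in Cy5. The window of Mrps11 (chr7:78782881-78783180, plus strand) takes in the bases between the 2 genes and the first bases of Mrpl46. Capitals mark a match to AAGATGGC, read on both strands, the letters bound by YY1, a zinc finger factor.
Mrps11: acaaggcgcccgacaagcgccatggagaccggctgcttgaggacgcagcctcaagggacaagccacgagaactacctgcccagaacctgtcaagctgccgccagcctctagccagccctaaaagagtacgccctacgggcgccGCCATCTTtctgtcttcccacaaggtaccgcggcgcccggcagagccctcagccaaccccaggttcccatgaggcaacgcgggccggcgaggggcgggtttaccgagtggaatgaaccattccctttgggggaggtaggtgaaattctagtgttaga

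RefSeq windows were found for 42 of the 48 genes, 47 windows in all. The NRF-1 palindrome was in 8 of these genes (19% of the 42, beside 11.5% of the 5781 tested genes with a window and 4.6% of all 32851 windows). CCGGAAG, the core bound by ETS factors such as GABP, was in 13 genes (31.0%, beside 19.7% of tested genes and 8.9% of all windows) and AAGATGGC in 9 genes (21.4%, beside 5.2% and 2.7%). At least 1 of the 3 was in 26 genes (61.9%, beside 32.1% and 14.7%). No matches overlapped one another in the first window of a gene. Of the 7 genes highest at D0, Mrps27 has CCGGAAG 48 bases upstream and AAGATGGC 14 bases downstream of its start. Mrpl17 has CCGGAAG 237 bases and the NRF-1 palindrome 49 bases upstream, and Mrpl49 has AAGATGGC 16 bases downstream. Mrpl2 and Mrps10 have no match, and Mrpl15 and Mrpl38 have no window. Mrps18a and Mrpl32, which are not among the 7, also have 2 of the 3 motifs.

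Other genes of the same system were read from lists. None of their members was called, except among the cytosolic ribosomal proteins. There 2 of 75 were lower for D1-LIF, 2 for D3-LIF, 1 for D3+LIF and 1 for D4+LIF, all against D0, and 1 was called in the slope with LIF. Of all 7142 genes, 5, 3, 3 and 3 were called lower in the same contrasts, and 2 were called in the slope with LIF. These 75 genes had medians against D0 of -1.15 for D4-LIF and -2.17 for D4+LIF, with 42 and 67 at an unadjusted p under 0.05 in limma, all lower, beside a background in that direction of 9.48% and 19%. Their medians with the Cy3 ratios inverted were 0.16 and -0.44, with none at an unadjusted p under 0.05 in limma. The 64 subunits of oxidative phosphorylation, which include the partners of the proteins that the mitochondrial ribosome makes, had -0.49 and -0.92, and 0.15 and -0.07 inverted. The 22 import and chaperone genes had -0.95 and -0.91, and 0.45 and 0.42 inverted. The medians were smaller for 9 translation factors of the organelle (-0.26 and -0.29), 22 mitoribosomal proteins under other names and assembly factors (-0.07 and -0.04), 13 mitochondrial aminoacyl-tRNA synthetases (-0.06 and -0.09) and 12 genes of mitochondrial DNA and transcription (-0.16 and -0.16). Inverted, the medians of these 4 lists were between 0.03 and 0.35. The list of 22 mixes ribosomal proteins with assembly factors, and its median does not describe each gene. In the direction used, its lowest changes were those of Dap3, a ribosomal protein, at -1.96 for D4-LIF and -2.27 for D4+LIF. Its highest were 1.19 (Mterf4) for D4-LIF and 0.88 (Afg3l2) for D4+LIF. Without LIF over with LIF, the medians were 0.32 for the cytosolic ribosomal proteins, 0.18 for oxidative phosphorylation and between -0.13 and 0.07 for the other 5 lists. Inverted, the medians were 0.24, 0.12 and between -0.10 and 0.13.

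**Figure D5:**
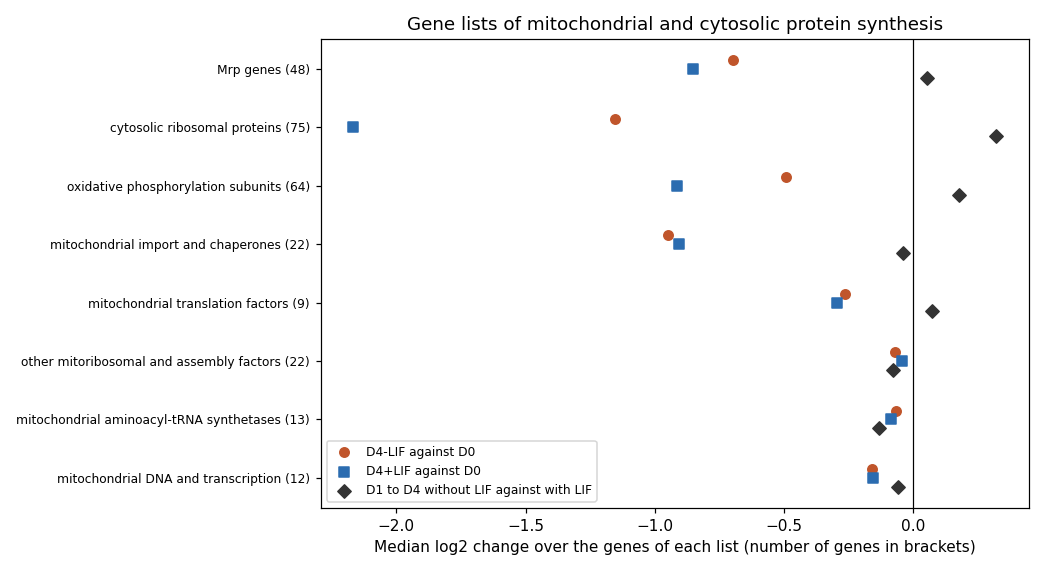
Median log2 change of the mitochondrial ribosomal protein genes (Mrp genes, top) and of 7 other gene lists for D4-LIF and D4+LIF against D0 and for EBs without LIF against EBs with LIF over Days 1 to 4. The cytosolic ribosomal proteins lie at -1.15, -2.17 and 0.32, and the Mrp genes at -0.70, -0.85 and 0.05.

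The cytosolic ribosomal proteins moved with the same dyes and arrays. Their median on the Cy5 arrays was -3.44 to -1.62 in EBs and -0.89 at D0, and on the D0 array in Cy3 it was 1.33, beside -0.67 to 0.63 on the EB arrays in Cy3. The part that dye and slide have in either group of ribosomal proteins was not tested beyond the values given. The identity of the cells was read from 26 of 42 listed markers, none of which was called. All 6 measured markers of undifferentiated ES cells, Pou5f1, Nanog, Zfp42, Dppa5a, Tdgf1 and Klf4, had changes below 0 on Day 4 against D0 in both media, -2.34 to -1.10 without LIF. Inverted, they were 0.62 to 1.99 without LIF. The study's own RT-PCR of EBs without LIF reported that Pou5f1, Nanog and Zfp42 held or rose on Day 4 at high serum. Of the 9 extraembryonic endoderm markers, 5 were below 0 without LIF and 4 with LIF, and Eomes, the 1 mesoderm marker measured, was at 1.24 without LIF (-1.09 inverted). Nes, the 1 neurectoderm marker measured, was at -0.76 without LIF (0.96 inverted) and was below 0 with LIF as well. Of the 2 primitive ectoderm markers 1 was below 0 in each medium. Of the trophoblast markers 2 of 3 and of the fibroblast markers 1 of 4 were below 0 without LIF. Over all genes, 57.7% were below 0 for D4-LIF and 57.2% for D4+LIF.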

How the data were processed

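Data came from 18 2-colour arrays (9 conditions, 1 array in each dye). The authors scanned the slides, quantified spots with ImaGene 5.5, scaled each channel to its mean intensity, and deposited linear ratios, 1 per spot and array. Here ratios were taken to log2, the copies of a clone (160 spots apart) were averaged, each slide was centred on its median, and clones of a gene were averaged. Genes were named from the platform's annotation (274 clones had several symbols, 5220 none) and placed on GRCm38.p6. Limma 3.58.1 (R 4.3.3) was fitted to 7142 genes with 9 condition means and a dye term, for 15 contrasts and an F test, with Benjamini-Hochberg adjustment over all genes at 0.05, and was tested on simulated data. Arrays carry no counts, and their number limits precision. The p-values measure only the spread between these arrays. The study's own test, SAM on duplicate spots as repeats, was not followed.

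The members and lists were chosen with earlier results of these data known. Array values are given for the 8 genes of smallest F test p, the 2 of largest, the highest and lowest mean and every gene with 2 clones. Mrpl17, Mrpl46, Mrps11 and the 7 genes highest at D0 were added after their values were seen, as were the motifs. The labels number no replicates, so the dye served as the block. Alternatives were centring over both slides, no centring, equal MAD, quantile normalization, no dye term, the Cy3 ratios inverted, clones on every array, array weights, duplicates within 1 log2, clone level, a 2-fold limit and leaving out each array. Leaving out slide 1 of the D0 array in Cy3 and using slide 2 only were added after seeing the data.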

Additional observations from a re-analysis of the deposited data

How the results depend on the processing

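No member was called in any of the 16 tests with no centring, equal MAD per slide, quantile normalization, the Cy3 ratios inverted or clones on every array (24 genes). The same held with array quality weights, duplicates within 1 log2, the clone-level fit or slide 1 of the D0 array in Cy3 left out. The weights came out equal for the 2 arrays of a condition (0.203 for both at D0), so they could not favour 1 over the other. A 2-fold limit could add no call to a main fit that called no member. With no replicate block, that is without the dye term, the count was 0 in every test as well. Centring each array over both slides called 1 gene, Mrps9, for D1-LIF and for D3-LIF against D0. Slide 2 alone called 1 gene, Mrpl45, for D4+LIF against D0. The share of all genes called under these settings is not given here, so the calls are not shown to be particular to Mrps9 or Mrpl45.

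Leaving out single arrays moved the counts, a lone array being assumed to vary like the others. Without the D0 array in Cy5, D0 rests on the Cy3 array alone, and the counts against D0 were 27, 17, 24 and 23 for D1-LIF to D4-LIF and 23, 24, 27 and 26 for D1+LIF to D4+LIF, 23 and 26 for the slopes without and with LIF and 13 for the F test. With every other array left out they were at most 6 (D1+LIF without its Cy3 array), and 4, 1, 0 and 0 for the LIF differences of Days 1 to 4 and 2 for their mean. The lowest count was 0 in each test.

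Directions turned for single genes. With the Cy3 ratios inverted, Mrps25 for D1-LIF was 0.79, Mrps27 for D3-LIF 0.25, Mrpl51, Mrps18b, Mrpl49 and Mrpl48 for D1+LIF 0.53, 0.57, 0.057 and 0.64, Mrpl2 and Mrps17 for D3+LIF 0.55 and -0.25, and Mrpl23 for D1-LIF 0.38, all against D0. With no centring, Mrps27 was 0.76, Mrpl2 0.13, Mrpl23 0.26 and Mrpl48 0.15, and the D2-LIF minus D2+LIF difference was -0.16 for Mrpl16 and -0.26 for Mrps35. Centring over both slides gave 0.28 for Mrps27 and -0.088 for Mrps35. Equal MAD gave 0.055 for Mrpl48, and clones on every array or slide 2 only gave 0.060 for Mrpl23. Without single arrays Mrps35 ranged from -0.10 to 0.45 and Mrpl23 from -1.38 to 0.060. The cause was not tested.

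The median of the 48 genes for D4-LIF against D0, -0.70, was -0.18 with centring over both slides, 0.18 with no centring (where the median of all genes moved to 0.33), -0.08 with equal MAD and -0.09 with quantile normalization. The median without LIF over with LIF, 0.05, was -0.06 with centring over both slides, -0.09 with no centring and -0.05 with equal MAD.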
